A study of Arabidopsis thaliana with 18 samples.

Results

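COR47 (AT1G20440) and LTI30 (AT3G50970) are dehydrin genes of Arabidopsis thaliana, the 2 described here out of 13286 genes that could be assigned an unshared probe set. They were picked by name, with earlier results of these data known, and each was read by 1 probe set. Their transcripts were measured with Affymetrix ATH1 arrays, which hybridise labelled RNA to sets of short probes, in 18 RNA samples of wild-type Columbia-0 plants grown hydroponically in MGRL medium under 12 h of light and 12 h of dark. The samples formed 6 groups of 3 biological replicates, and the number of arrays limits the precision of every value. Mock leaves and mock roots carried the day 10 label and received no mannitol as far as the labels say. Osmotic leaves and osmotic roots, also labelled day 10, came from plants given 0.3 M mannitol in the medium for 3 h in the light. Day 11 leaves and roots were labelled osmotic too and were taken as the recovery plants, which had been put back into basal medium for 1 day after the stress. The treatment description gives an age of 30 days, so the day labels may not be plant ages. Day 11 plants had no mock group of their own day, so a later sampling day, the transfer and the recovery cannot be told apart. The labels do not say whether the replicates were separate plants or cultures. The p-values set differences against the spread between these samples, whatever unit a replicate stands for. The sources used here do not give the hour at which mock plants were sampled.

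Dehydrins are hydrophilic, largely disordered proteins that accumulate when plant cells lose water through drought, salt, cold or seed drying. They share a lysine-rich stretch, the K-segment, which can fold into a helix on membranes, and they are known to bind membranes and to protect enzymes from drying and freezing. COR47 is an acidic dehydrin that also carries a run of serines, whereas LTI30, also named XERO2, is a basic, histidine-containing dehydrin built mainly of K-segments that binds membranes. Both genes are known targets of the CBF transcription factors of cold acclimation, and both are also induced by drought and the drought hormone abscisic acid (ABA).

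The organ labels were checked against markers before the values were read. All 4 measured leaf markers (PSAE-1, PRK, RCA and FMA) were lower in mock roots than in mock leaves, and both measured root hair markers (EXPA7 and EXPA18) were higher. The mean of the leaf markers lay between 10.8 and 11.32 (log2) on the leaf arrays and between 4.38 and 4.94 on the root arrays. The mean of the root markers lay between 4.36 and 4.73 on leaf arrays and between 8.59 and 9.14 on root arrays. These organ differences compare with 33.5% of all probe sets called higher and 23% called lower in mock roots. Arrays of the same group correlated at 0.9867 to 0.9947 over all probe sets.

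COR47 transcript was present in every group and followed the same course in both organs, with its highest level under mannitol. In mock leaves the 3 arrays read 10.81, 10.84 and 10.93 on the deposited log2 scale (mean 10.86 ± 0.06, SD, n = 3). In osmotic leaves they read 12.28, 11.96 and 12.32 (12.19 ± 0.20), and at day 11 they read 10.22, 10.37 and 10.74 (10.44 ± 0.27). Every osmotic leaf array was above every mock and every day 11 leaf array, and the day 11 arrays were all below the mock arrays. In mock roots COR47 read 11.60, 11.68 and 11.39 (11.56 ± 0.15). In osmotic roots it read 12.74, 12.41 and 12.62 (12.59 ± 0.17), and in day 11 roots 11.22, 11.29 and 11.12 (11.21 ± 0.09). The root groups did not overlap either, with osmotic roots highest and day 11 roots lowest. From lowest to highest, the groups ranked day 11 leaf, mock leaf, day 11 root, mock root, osmotic leaf and osmotic root, and no neighbours in that order shared a range.

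LTI30 spanned a wider range of levels than COR47 and was more spread among the day 11 arrays. In mock leaves it read 8.59, 8.92 and 8.50 (8.67 ± 0.22), and in osmotic leaves 10.84, 11.05 and 11.02 (10.97 ± 0.11). Day 11 leaves read 7.84, 8.82 and 8.20 (8.29 ± 0.50). The osmotic leaf arrays were all above the others, while the day 11 and mock leaf arrays overlapped. In mock roots LTI30 read 9.65, 10.20 and 9.69 (9.85 ± 0.31), and in osmotic roots 12.77, 12.57 and 12.74 (12.69 ± 0.11). Day 11 roots read 9.84, 10.90 and 10.67 (10.47 ± 0.56), so that replicate 1 lay within the mock range and replicates 2 and 3 above it. The order of the groups was day 11 leaf, mock leaf, mock root, day 11 root, osmotic leaf and osmotic root. Day 11 leaf and mock leaf overlapped, as did mock root and day 11 root, and day 11 root and osmotic leaf. The other neighbours did not share a range. The lowest value of either gene, 7.84, was well above the lower quartile of the arrays (4.268 to 4.496). The highest, 12.77, was below the highest deposited value, 13.9. The top percentile of each array began between 11.87 and 12.05. The osmotic means of COR47 (12.19 in leaves, 12.59 in roots) and the osmotic root mean of LTI30 (12.69) lay above that range. Whether signals this high still followed the transcript in proportion was not tested, so the sizes of changes reaching them are uncertain. In whole organs, fewer cells with a transcript and less transcript in each cell cannot be told apart.

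**Figure D1:**
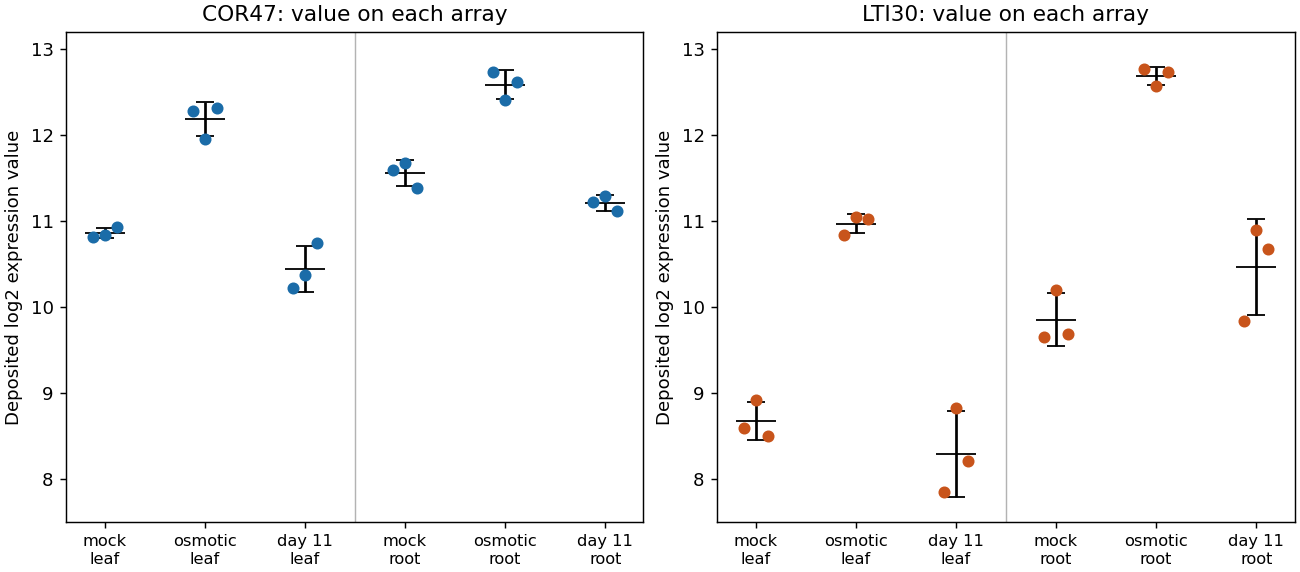
Deposited log2 expression values of COR47 (left) and LTI30 (right) in the 6 groups. Points are the 3 arrays of a group, horizontal bars the group mean and whiskers the SD. In both organs the osmotic arrays lie above the mock arrays, and the COR47 day 11 arrays lie below them.

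The comparison of osmotic with mock plants asked how the 2 genes responded to 3 h of mannitol. Both rose in both organs. Changes are given as the difference of group means (log2) ± SE, taken from 1 limma model of the 18 arrays, with p-values adjusted by the Benjamini-Hochberg method over 22746 probe sets, and "rose" or "fell" means an adjusted p below 0.05. COR47 rose by 1.33 ± 0.13 in leaves, 2.51-fold (95% confidence interval 2.07 to 3.04; limma adjusted p = 2.6e-06). In roots it rose by 1.03 ± 0.13, 2.05-fold (1.69 to 2.48; limma adjusted p = 1.1e-05). LTI30 rose by 2.30 ± 0.24 in leaves, 4.94-fold (3.47 to 7.03; limma adjusted p = 4.7e-06). In roots it rose by 2.85 ± 0.24, 7.19-fold (5.05 to 10.2; limma adjusted p = 7.9e-08). Rises were called for 8.62% of all probe sets in leaves and 10.6% in roots, falls for 12% and 13.7%, and the median change of all probe sets was within 0.01 of 0 in both organs. Ordered from the largest rise to the largest fall, LTI30 stood 60th of all probe sets in leaves and 127th in roots, and COR47 364th and 924th.

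On the log2 scale the LTI30 signal moved further than that of COR47 at both steps. The 2 probe sets lay at different heights, with mock means of 8.67 and 9.85 in leaves and roots for LTI30, and 10.86 and 11.56 for COR47. Whether they respond alike to the same change in transcript was not tested. The difference between their log2 changes from mock to osmotic was 0.98 in leaves and 1.81 in roots, 1.40 on average, so that the rise of LTI30 was 2.63 times that of COR47 as a ratio of folds. In an exact permutation test with labels exchanged within each organ, the two-sided p was 0.005, the smallest the design allows (adjusted p = 0.0075 over 3 values). From osmotic to day 11 the difference was -0.94 in leaves and -0.85 in roots, on average -0.89 (exact permutation p = 0.005, adjusted p = 0.0075). Both values use the same osmotic arrays. Between day 11 and mock the average difference of 0.50 did not pass (exact permutation p = 0.125), with 0.04 in leaves and 0.97 in roots. Within 1 organ, 3 arrays against 3 cannot give an exact two-sided p below 0.1.

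The comparison of day 11 with osmotic plants followed the genes after the mannitol was removed. Both fell in both organs, where falls were called for 7.96% of probe sets in leaves and 8.85% in roots. COR47 fell by 1.74 ± 0.13 in leaves, a level 3.35-fold lower (2.76 to 4.06; limma adjusted p = 1.2e-07), and fell by 1.38 ± 0.13 in roots, 2.6-fold lower (2.15 to 3.16; limma adjusted p = 5.6e-07). LTI30 fell by 2.68 ± 0.24 in leaves, 6.42-fold lower (4.51 to 9.14; limma adjusted p = 8.9e-07), and fell by 2.23 ± 0.24 in roots, 4.68-fold lower (3.29 to 6.67; limma adjusted p = 2.5e-06). By the size of the fall, LTI30 stood 27th of all probe sets in leaves and 159th in roots, and COR47 136th and 491st. Set against the preceding rise on the log2 scale, the fall of COR47 was 131% of it in leaves and 134% in roots, and that of LTI30 116% in leaves and 78.3% in roots. These shares describe the means, and rise and fall share the osmotic arrays.

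Day 11 plants were also compared with mock plants, which asked whether the genes were back at their unstressed level. Neither gene passed the test in either organ, where 1.09% of probe sets were called in leaves and 7.65% in roots. With 1 array left out, that was 92 to 359 probe sets in leaves and 790 to 1970 in roots, against 248 and 1741. COR47 stood at -0.42 ± 0.13 in leaves (95% confidence interval -0.69 to -0.14, limma adjusted p = 0.15) and at -0.35 ± 0.13 in roots (-0.62 to -0.07, limma adjusted p = 0.12), with no overlap between day 11 and mock arrays in either organ. LTI30 stood at -0.38 ± 0.24 in leaves (-0.89 to 0.13, limma adjusted p = 0.5) and at 0.62 ± 0.24 in roots (0.11 to 1.13, limma adjusted p = 0.13), with overlapping arrays in both. These 4 day 11 differences had unadjusted limma p-values of 0.0057 and 0.017 for COR47 and 0.13 and 0.02 for LTI30. The root value of LTI30 turned on day 11 root replicate 1: without it the difference was 0.93 (limma adjusted p = 0.022). The COR47 values passed with array weights (-0.40 in leaves, limma adjusted p = 0.045; -0.36 in roots, limma adjusted p = 0.035), and in roots also with only mock and day 11 root arrays in the fit (-0.35, limma adjusted p = 0.045).

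Averaged over both organs, the day 11 minus mock difference was -0.38 ± 0.09 for COR47 (95% confidence interval -0.58 to -0.18) and 0.12 ± 0.17 for LTI30 (-0.24 to 0.48). This average was taken after every COR47 array at day 11 had been seen below the mock arrays of its organ, so it describes that observation and no call is drawn from it.

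Roots carried more of both transcripts than leaves in each of the 3 states. For LTI30 the root minus leaf difference was 1.18 ± 0.24 in mock plants, 2.27-fold (1.59 to 3.23; limma adjusted p = 0.00035). It was 1.72 ± 0.24 under mannitol (limma adjusted p = 5.2e-06) and 2.18 ± 0.24 at day 11, 4.53-fold (3.18 to 6.44; limma adjusted p = 2.3e-07). For COR47 it was 0.70 ± 0.13 in mock plants, 1.62-fold (1.34 to 1.97; limma adjusted p = 0.00015), and 0.77 ± 0.13 at day 11 (limma adjusted p = 5.4e-05). Under mannitol the COR47 difference was 0.40 ± 0.13 (limma adjusted p = 0.014). That call ended without osmotic leaf replicate 2 (0.29, limma adjusted p = 0.086), without osmotic root replicate 1 (0.33, limma adjusted p = 0.069) and with only the osmotic arrays in the fit (limma adjusted p = 0.06). A higher level in roots was common, with 33.5% of probe sets called in mock plants, 32.7% under mannitol and 33.8% at day 11.

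The difference between the organs in each response was tested directly, and none of the 6 values passed with limma. Without adjustment 1 of them was past the threshold, that of LTI30 at day 11 against mock (limma unadjusted p = 0.0093). The mannitol response differed between root and leaf by -0.29 ± 0.19 for COR47 (95% confidence interval -0.69 to 0.10) and by 0.54 ± 0.34 for LTI30 (-0.18 to 1.26), both with a limma adjusted p of 0.33. The change from osmotic to day 11 differed by 0.36 ± 0.19 for COR47 (limma adjusted p = 0.24) and by 0.46 ± 0.34 for LTI30 (limma adjusted p = 0.46). For the day 11 state against mock, COR47 stood at 0.07 ± 0.19 (limma adjusted p = 0.91) and LTI30 at 1.00 ± 0.34 (0.28 to 1.72, limma adjusted p = 0.15). The LTI30 value passed without day 11 root replicate 1 (1.31, limma adjusted p = 0.031) and without day 11 leaf replicate 2 (1.26, limma adjusted p = 0.047). Organ differences were called for 15.4%, 12% and 2.29% of probe sets, in the order of the 3 responses given.

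**Figure D2:**
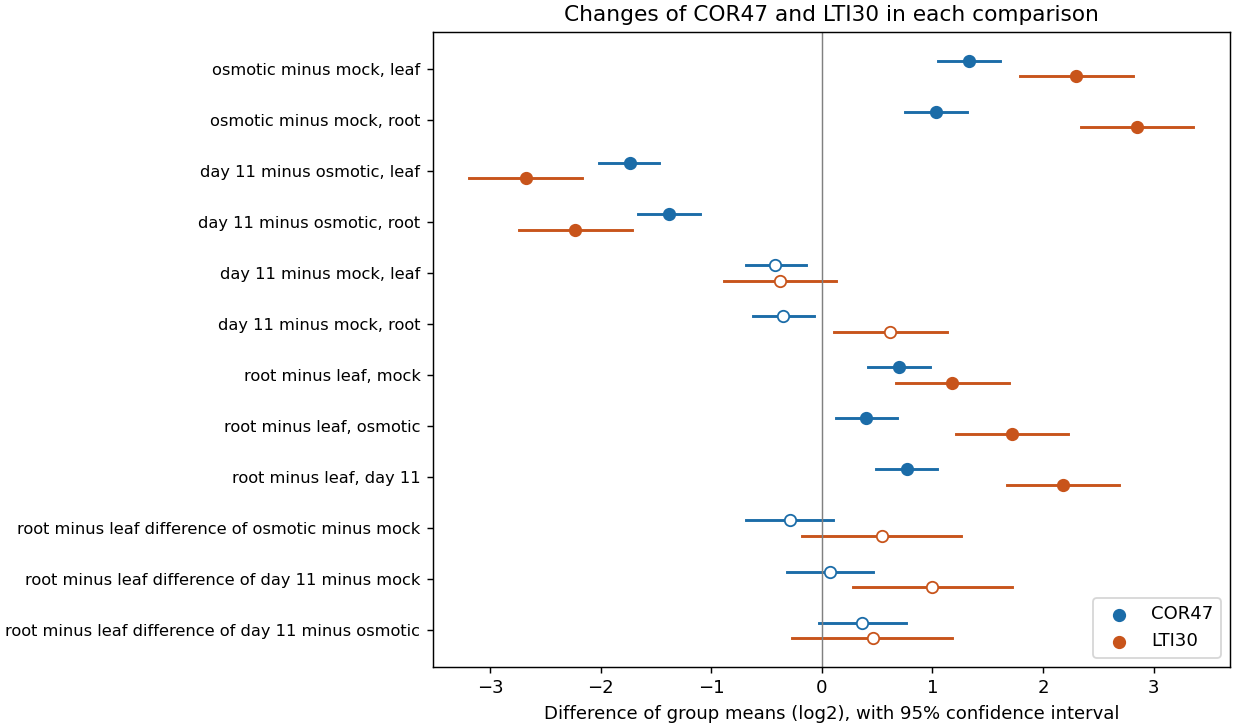
Differences of group means (log2) for COR47 and LTI30 in 12 comparisons, with 95% confidence intervals from the limma fit. Filled points have an adjusted p below 0.05. The osmotic rises and the falls to day 11 lie far from 0 in both organs, and the 6 organ differences of a response are open points.

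The rest of the dehydrin family was described from a list of 10 loci, of which 6 could be read from an unshared probe set. ERD10 and XERO1, dehydrin genes that lie directly beside COR47 and LTI30 in the RefSeq gene order, were not analysed here, nor were ERD14 and RAB18. In osmotic leaves and in osmotic roots 2 of the 6 rose, COR47 and LTI30 themselves, with medians over the family of 0.24 and 0.43 (3 of 6 in roots under some alternatives, with AT4G38410). Over all probe sets 8.62% rose in leaves and 10.6% in roots, with medians of -0.00 and -0.01. AtHIRD11 (AT1G54410), a small dehydrin, had 12.31 ± 0.09 in mock leaves and 12.31 ± 0.32 in mock roots, and its changes under mannitol were 0.22 ± 0.13 (limma adjusted p = 0.28) and 0.02 ± 0.13 (limma adjusted p = 0.92). AT4G38410, listed as a dehydrin by locus only, was higher in mock roots than in mock leaves by 3.72 ± 0.32 (limma adjusted p = 5.9e-09). In roots it stood at 0.77 ± 0.32 under mannitol (limma adjusted p = 0.088) and fell by 1.35 ± 0.32 from osmotic to day 11 (limma adjusted p = 0.0052). The remaining members, the dehydrin LEA (AT2G21490) and AT4G39130, had group means of 3.29 to 3.57 and 3.56 to 3.73, below the lower quartile of the arrays, where a fall would hardly show. Neither passed in any comparison of 2 states within an organ, and LEA was called lower in roots than in leaves at day 11 (-0.23 ± 0.09, limma adjusted p = 0.048) with overlapping arrays. Among genes with the word dehydrin in their RefSeq names, 0 of 2 measured, AtHIRD11 and LEA, passed in either organ with limma (0 of 2 also at an unadjusted p below 0.05).

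Genes with known links to these dehydrins were counted from further lists. A gene is called measured where the annotation gave it an unshared probe set. Of 30 cold-regulated effector genes, 4 were measured, and all 4 rose in osmotic leaves (median 2.74) while 2 rose in osmotic roots (median 0.87), beside 8.62% and 10.6% of all probe sets with medians of -0.00 and -0.01. COR15A, which encodes a chloroplast protein that protects membranes in freezing, rose by 2.06 ± 0.23 in leaves, whereas its root value was 0.29 ± 0.23 (limma adjusted p = 0.41). Its neighbour COR15B rose by 1.40 ± 0.21 in leaves, with a root value of -0.01 ± 0.21 (limma adjusted p = 0.98). The root response was lower than the leaf response for COR15A (-1.77 ± 0.33, limma adjusted p = 0.0013), COR15B (-1.41 ± 0.29, limma adjusted p = 0.0031) and AT4G33980 (-1.97 ± 0.42, limma adjusted p = 0.0034), a difference that did not pass for COR47 or LTI30. The root means of COR15A and COR15B, 4.23 to 4.52, lay about the lower quartile of the arrays (4.268 to 4.496). A fall could hardly show there. A large rise from that height could show, as COR27 went from 4.13 in mock roots to 7.30 in osmotic roots. Whether the COR15A and COR15B probe sets respond alike at that height was not tested. COR27, a cold-regulated gene tied to the clock, rose by 4.02 ± 0.25 in leaves and 3.17 ± 0.25 in roots, and AT4G33980 rose by 3.42 ± 0.30 and 1.45 ± 0.30. COR27 in mock plants (4.10 in leaves, 4.13 in roots) and AT4G33980 in mock leaves (3.81) lay below the lower quartile, so these rises are read as lower limits, and so is the size of the AT4G33980 organ difference. None of these 4 passed between day 11 and mock in either organ. That comparison was called for only 1.09% of all probe sets in leaves and 7.65% in roots. The lack of a call therefore does not show a full return. By RefSeq name, 5 of 5 measured genes with cold-regulated or low temperature in their names rose in leaves and 3 of 5 in roots. These were COR47 and LTI30 themselves with COR15A, COR15B and COR27, so the count adds no further gene.

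Late embryogenesis abundant (LEA) proteins other than dehydrins are further protective proteins of drying tissue. Of 36 listed, 25 were measured, of which 8 rose and 0 fell in osmotic leaves (median 0.19; 0 fell also at an unadjusted p below 0.05), and 9 rose and 1 fell in osmotic roots (median 0.14). Over all probe sets 8.62% rose and 12% fell in leaves, and 10.6% rose and 13.7% fell in roots. Most of the 25 were dim in mock plants, with means under 4.268, the smallest lower quartile of any array. Examples are AT2G33690 (2.76 in mock leaves, 2.66 in mock roots) and AT5G38760 (3.11 and 2.99). Signals that dim have little room to fall, so the scarcity of falls is not read as a trait of these genes. LEA4-5 rose by 2.88 ± 0.22 in leaves and 4.51 ± 0.22 in roots, and AT3G02480 rose by 3.90 ± 0.39 and 3.35 ± 0.39. AT3G15670 rose by 0.54 ± 0.17 in leaves and by 1.77 ± 0.17 in roots, whereas AT3G53770 fell by 1.74 ± 0.27 in roots and stood at 0.17 ± 0.27 in leaves (limma adjusted p = 0.74). The organ difference of the response was called for 4 of the 25, beside 15.4% of all probe sets. It was higher in roots for LEA4-5 (1.63 ± 0.31, limma adjusted p = 0.0016) and AT3G15670 (1.23 ± 0.24, limma adjusted p = 0.0017). It was lower in roots for AT3G53770 (-1.91 ± 0.38, limma adjusted p = 0.0022) and for AtLEA4-1 (-0.89 ± 0.18, limma adjusted p = 0.0028), which was named after its values were seen. AT3G15670 (3.65 in mock leaves, 4.20 in osmotic leaves and 3.39 in mock roots), AtLEA4-1 in mock plants (3.56 and 3.54) and AT3G53770 in leaves (3.05 and 3.22) lay below the lower quartile, so the sizes of these 3 differences are uncertain. AT2G42560 stood at 0.36 ± 0.17 and AT2G03740 at -0.21 ± 0.14 in osmotic leaves (limma adjusted p = 0.16 and 0.34). The number of rising members was 5 in leaves without osmotic leaf replicate 2 or with only the compared groups in the fit, and 4 in each organ when dim probe sets were left out; without 1 array it ran from 6 to 9 in roots. Of 5 measured genes with late embryogenesis abundant in their RefSeq names, 4 rose in leaves and 3 in roots. They were already in the lists by locus, so the count adds no further gene.

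Regulators and ABA genes were thinly covered. Of 16 CBF and DREB transcription factors, 2 were measured, and the CBF genes themselves and DREB2A were not analysed here. Of those 2, tny (AT5G25810) fell by 1.52 ± 0.23 in osmotic roots, and AT1G75490 stood at 0.12 ± 0.15 in leaves and 0.40 ± 0.15 in roots (limma adjusted p = 0.67 and 0.062), where it passed with array medians centred, without the variance trend and with the replicate block. Of 16 genes listed here as regulators upstream of the CBF genes, 3 were measured, with 2 rising in each organ. Whether these 3 act before the CBF genes was not tested. Over all probe sets 8.62% rose and 12% fell in leaves, and 10.6% rose and 13.7% fell in roots. STZ, a zinc finger factor of stress responses, rose by 1.12 ± 0.19 in leaves and 1.68 ± 0.19 in roots. STZ was still above mock in day 11 leaves (1.41 ± 0.19, limma adjusted p = 0.0011). SIZ1, a SUMO ligase, rose by 0.38 ± 0.11 in roots. The root count was 1 without mock root replicate 2, osmotic root replicate 2 or osmotic root replicate 3, and the leaf count 1 with the compared groups alone. GI, a clock-associated gene with a daily rhythm, rose by 0.58 ± 0.14 in osmotic leaves and stood at -0.08 ± 0.14 in roots (limma adjusted p = 0.74), and the part of sampling hour in the dehydrin values was not tested.

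Of 35 ABA-responsive effector genes, 4 were measured, with 3 rising and 1 falling in osmotic leaves and 1 rising and 1 falling in osmotic roots (2 rising with array weights). The shares over all probe sets were 8.62% rising and 12% falling in leaves, and 10.6% and 13.7% in roots. ALDH7B4, an aldehyde dehydrogenase of stress protection, rose by 2.06 ± 0.17 in leaves and 2.17 ± 0.17 in roots, and it was still above mock in day 11 roots (0.81 ± 0.17, limma adjusted p = 0.0083). XERICO, a RING protein that promotes ABA accumulation, rose by 0.92 ± 0.14 in leaves and fell by 0.63 ± 0.14 in roots. RD2 rose by 0.74 ± 0.13 and HVA22C fell by 0.59 ± 0.15 in leaves. Of 17 genes of ABA synthesis and breakdown 2 were measured, and UGT71B6, which attaches glucose to ABA, rose by 0.98 ± 0.22 in leaves (0 of the list when dim probe sets were left out), while UGT71C5 stood at 0.20 ± 0.15 in leaves and 0.14 ± 0.15 in roots. Of 11 ABA-related bZIP factors, EEL alone was measured, at 0.55 ± 0.25 in leaves and 0.26 ± 0.25 in roots (limma adjusted p = 0.14 and 0.5). Of 23 ABA receptors, phosphatases and kinases, 0 could be assigned an unshared probe set. The annotation left 8730 probe sets without a gene, so this does not mean that the array lacks them.

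**Figure D3:**
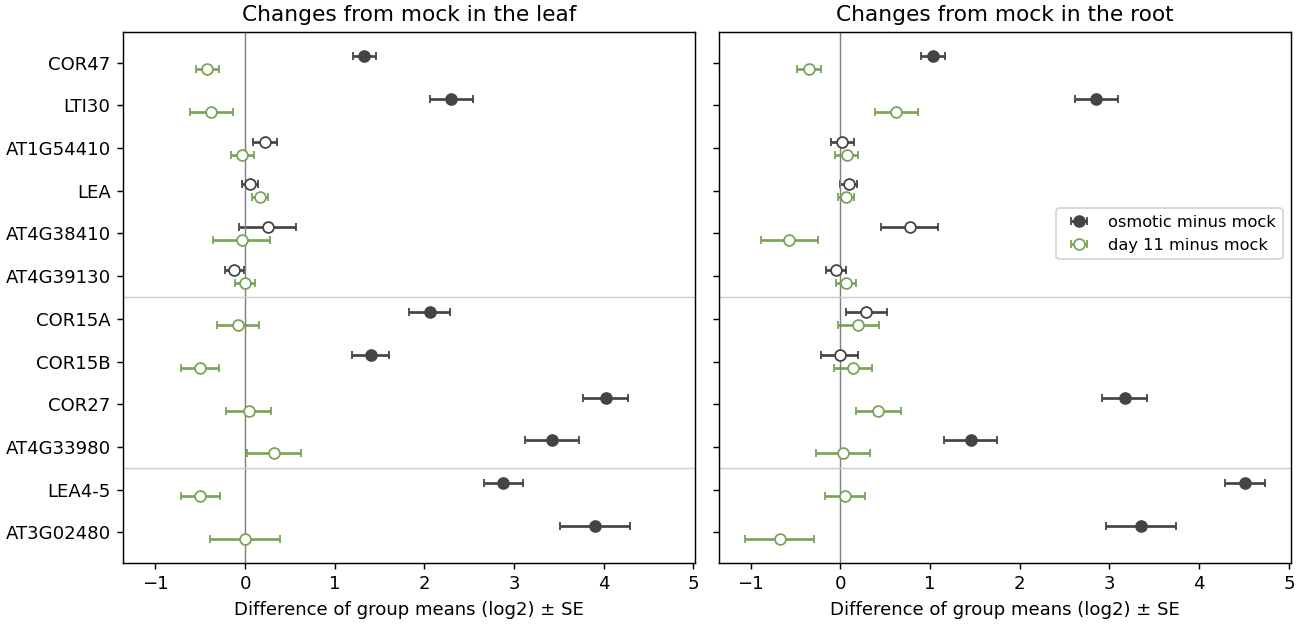
Changes from mock (log2 ± SE) in leaves (left) and roots (right) for the 6 measured dehydrins (top), 4 cold-regulated genes (middle) and 2 late embryogenesis abundant genes (bottom). Filled points have an adjusted p below 0.05. COR47 and LTI30 rise in both organs under mannitol, COR15A and COR15B in leaves, and all day 11 points are open. The 2 late embryogenesis abundant genes do not stand for the 25 measured, of which 8 rose in osmotic leaves and 9 in osmotic roots.

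Genes with the pattern nearest to each dehydrin were found by the root mean square difference between group means over the 6 groups, each gene centred on its own mean. For COR47 the nearest were AT4G23050 and AT4G30490 at 0.22 (log2), AT5G57910 at 0.24, and AT2G32150 and AT1G63720 at 0.27, beside a median of 0.78 over 13285 genes. For LTI30 they were AT1G26380 at 0.38, AT1G49450 at 0.45, ZW9 (AT1G58270) at 0.46, AT4G33980 at 0.55 and AT1G06620 at 0.58, beside a median of 1.48. COR47 and LTI30 differed from each other by 0.81, which placed COR47 49th from LTI30 and LTI30 8017th from COR47. The genes were centred but not scaled, so the measure counts the size of the changes as well as their shape. Group means ran from 8.29 to 12.69 for LTI30 and from 10.44 to 12.59 for COR47. These places therefore do not show unlike shape, and shape alone was not tested. The lists rest on 6 means of the same arrays.

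**Figure D4:**
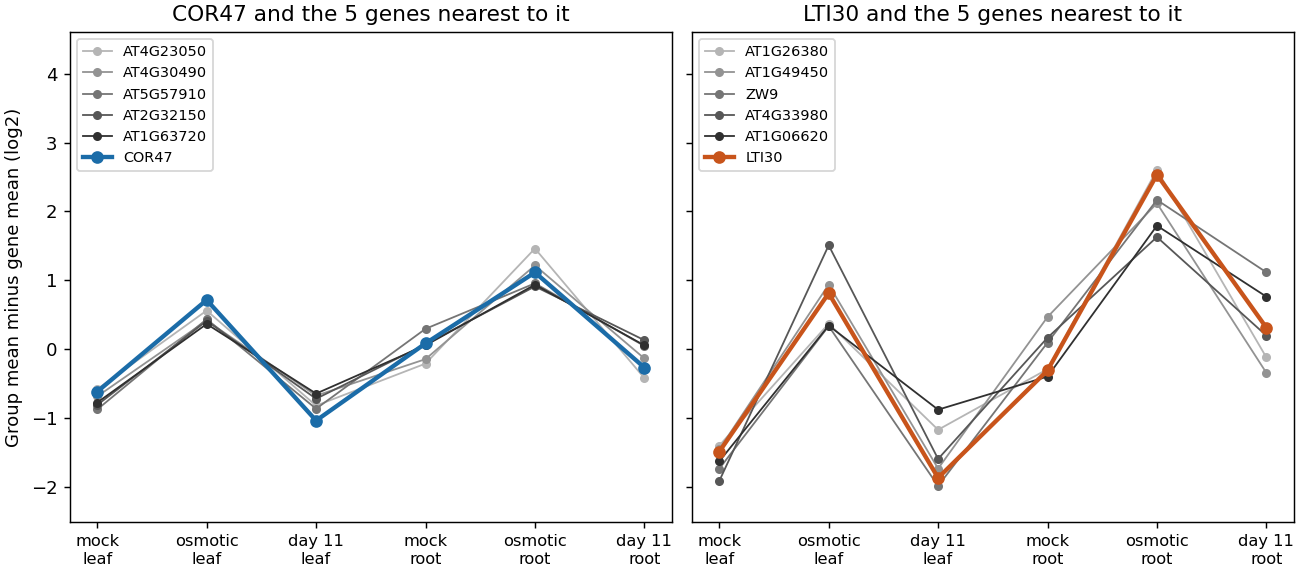
Group means (log2) minus the gene's mean over the 6 groups for COR47 (left) and LTI30 (right), in colour, with the 5 genes nearest to each in grey. The grey genes were chosen as nearest to these means, so the shared peaks at osmotic leaf and osmotic root follow from the choice. The grey lines lie within 0.22 to 0.27 of COR47 and 0.38 to 0.58 of LTI30 as root mean square difference.

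The genes beside each dehydrin on the chromosome were described up to 5 loci away on each side. Of the 10 loci around COR47, 6 could be read from an unshared probe set, and of the 10 around LTI30, 4. Near COR47, AT1G20490, 5 loci away, rose by 0.72 ± 0.16 in osmotic leaves and 1.33 ± 0.16 in osmotic roots, and AT1G20380 and AT1G20410 fell by 1.03 ± 0.31 and 0.44 ± 0.11 in roots. AT1G20430, the locus directly before COR47, stood at 0.07 ± 0.16 in leaves and -0.04 ± 0.16 in roots. Near LTI30, AT3G51000 rose by 0.66 ± 0.14 in leaves, with 0.19 ± 0.14 in roots (limma adjusted p = 0.35). The other measured neighbours did not pass under mannitol in either organ. Beside these, rises were called for 8.62% of all probe sets in leaves and 10.6% in roots, and falls for 12% and 13.7%. Whether the neighbours differed from these shares was not tested.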

How the data were processed

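Per the labels' protocols, biotin-labelled probe was made from 1 μg of total RNA and hybridised to ATH1 arrays. The authors deposited log2 expression values for 22810 probe sets; the summarisation and normalisation are not given in the sources used here. Base 2 was inferred because the maximum, 13.9, lies between 11.1, the natural log, and 16, the log2, of the highest 16-bit intensity. Array medians were 6.553 to 6.69, and values were used as deposited. The 64 manufacturer's controls were left out. The platform annotation gave 13513 probe sets 1 gene, 503 several and 8730 none; 13436 were matched to the RefSeq table of TAIR10.1, used for names and gene order. With several probe sets, the one with the highest mean was used.

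A mean for each of 6 groups was fitted with limma 3.58.1 in R 4.3.3 (eBayes with a mean-variance trend), and the fit was tested on simulated data. No depth applies to arrays; the median SD within groups was 0.1241 to 0.1735. The single values comparing LTI30 with COR47 used an exact permutation test within organs. The dehydrins, gene lists and tests were chosen with earlier results of these data known. Named genes were, per list, up to 4 past the threshold with the largest mannitol change and up to 2 others with the highest mean, all measured dehydrins, the 5 nearest in pattern and neighbours within 5 loci. Alternatives were array centring, quantile normalisation, dim probe sets left out, no trend, array weights, compared groups alone, a replicate block and each array left out. Group columns came from the labels. Same-numbered arrays deviated together in 10 of 45 pairs (correlation above 0.1), with correlations from -0.289 to 0.346. No differently numbered arrays were set beside them, so this cannot decide whether the numbers mark pairs. The numbers were not taken as pairs in the main fit, and the replicate block was the alternative.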

Additional observations from a re-analysis of the deposited data

How the results depend on the processing

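The rises under mannitol, the falls to day 11 and the excess of LTI30 over COR47 at both steps kept direction and call under every alternative run, and so did the higher root level, except for COR47 under mannitol. Over the arrays left out one at a time, the COR47 rise was 1.26 to 1.44 in leaves and 0.95 to 1.12 in roots, and the LTI30 rise 2.22 to 2.43 and 2.75 to 3.02. The COR47 root minus leaf difference under mannitol was 0.29 to 0.49 with an array left out, and 0.40 with the call lost in the compared groups alone. The day 11 minus mock values of COR47 passed with array weights (-0.40 in leaves, -0.36 in roots) and, in roots, with the compared groups alone (-0.35); that of LTI30 in roots ran from 0.40 to 0.93 with an array left out. The organ difference of day 11 minus mock ran from 0.78 to 1.31 for LTI30 and from -0.04 to 0.22 for COR47, which turned sign at -0.01 without mock root replicate 3 and -0.04 without day 11 leaf replicate 1. The mean of both organs ran from -0.46 to -0.33 for COR47 and from -0.01 to 0.28 for LTI30, negative without day 11 leaf replicate 2. The causes were not tested. With a replicate block no call of COR47 or LTI30 changed (LTI30 rise 2.30 in leaves and 2.85 in roots). Probe sets called moved by over 1.5 times as follows. For osmotic against mock leaves they went from 4694 to 3063 in the compared groups alone and 3048 without osmotic leaf replicate 2, and for day 11 against osmotic leaves from 3888 to 1795 and 2423. For day 11 against mock leaves they went from 248 to 1515 with array weights, 127 in the compared groups alone, and 119, 92 and 146 without mock leaf replicate 1, mock leaf replicate 3 or day 11 leaf replicate 3. For day 11 against mock roots they went from 1741 to 3423 with array weights and to between 790 and 1133 without any 1 of the mock root replicates or day 11 root replicates 1 or 2. The organ difference of day 11 against mock went from 520 to 1274 with array weights and to between 250 and 334 on leaving out replicate 2 or 3 of mock leaf, 1 or 3 of mock root, 3 of day 11 leaf or 2 of day 11 root. The mean of both organs went from 1486 to 4317 with array weights and to between 726 and 949 on leaving out replicate 1 or 3 of mock leaf, 1 or 2 of mock root, 2 of day 11 leaf or 2 of day 11 root. With the difference in pattern taken over all 18 arrays, 2 of the 5 genes nearest to COR47 and 3 of the 5 nearest to LTI30 were the same. The lists are limited by the annotation, and signals below the lower quartile can hardly show a fall.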
